A study of Mus musculus with 4 samples.

Results

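Lcp2, Lax1, Lat, Lck, Fyb, Fyn, Ptprc and Zap70 encode adaptors, kinases and a phosphatase that act next to the antigen receptor of T cells. They are described here in group 2 innate lymphoid cells (ILC2) of mouse pancreas, lymphocytes that carry no rearranged antigen receptor. The 8 genes were chosen by name with earlier results of these cells in view, in which Lcp2 and Lax1 stood among the genes with the largest differences in share of cells between colours. Those shares and levels chose the members, so they are given as a description, with no test. All 8 were found among the 11352 gene rows of the count table.

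Single ILC2 were sorted into 4 plates of 384 wells and read with SORT-seq, a plate method based on CEL-seq2 that reads transcripts at their 3′ ends. The cells are labelled C57BL6J and express KIKR, whose green fluorescence becomes red on exposure to violet light. Wells of plate 1 held photoconverted (KIKR-Red) cells, non-photoconverted (KIKR-Green) cells or no cell. The labels give no promoter for KIKR, no feeding state, no age and no animal of origin, and they do not say which tissue was exposed to light.

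In T cells, the Src-family kinases Lck and Fyn phosphorylate the tail motifs (ITAMs) of the CD3 chains, and Zap70 docks there. Zap70 then phosphorylates the membrane scaffold Lat and the cytosolic adaptor SLP-76, the product of Lcp2, on which calcium, Ras and cytoskeletal signalling assemble. The adaptor ADAP, the product of Fyb, binds SLP-76 and links it to integrins. CD45, the product of Ptprc, is the surface phosphatase of leukocytes that keeps Src-family kinases ready to act, and Lax1 is a Lat-like membrane adaptor known in mice to restrain lymphocyte receptor signalling.

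Values of named genes rest on plate 1, which held 52614294 reads. There the rows named as mitochondrial took 5.63% of reads, against 0.0110 to 0.0531% on the other plates, where row names could not be tied to genes. Of 12 photoconverted and 151 non-photoconverted wells, 8 and 98 passed a filter of at least 500 genes and under 25% mitochondrial reads. Photoconverted cells had a median of 540662 gene reads and 2748.5 genes with a read, non-photoconverted cells 187690 and 1637. Each photoconverted cell was therefore also set against its 5 nearest non-photoconverted cells in genes with a read (depth-matched cells below). This gave 40 cells with reuse, 29 of them distinct, with a median of 2718.5 genes over the 40. Genes with 16 or more reads stayed fewer in them, with a median of 1569.5 against 1834.5 in photoconverted cells. The deepest photoconverted cell had 5129 genes, above the highest of 4480 in non-photoconverted cells, so it had no equal match. A gene was called detected in a cell at 16 or more reads. One plate gives 1 sample per colour, so no p-value was computed, and intervals are exact 95% binomial ones that cover counting error of cells alone. Where a count is 0, the share it allows is given as 3 over the number of cells or wells, an approximate 95% limit. PCR copies of 1 molecule can each count as a read.

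ILC2-like markers were detected in both colours, but unevenly from gene to gene. Gata3, the lineage transcription factor, was found in 8 of the 8 photoconverted cells and 83.7% of the non-photoconverted cells. Rora was rarer, with 2 of 8 photoconverted cells against 6.12% in the other colour. For Il13 these values were 0 of 8 against 8.16%, and for Il17rb 1 of 8 against 30.6%. Of the 14 ILC2-like markers, 13 reached a share of 10% among photoconverted cells and 12 among non-photoconverted cells. At least 3 of the 14 were held by 8 of 8 photoconverted and 83 of 98 non-photoconverted cells. Of the 11 T cell-like markers, 5 had a gene row, and 0 of 106 cells held 3 of them. Their summed level ran from 0 to 327 CPM (counts per 1000000 gene reads) in photoconverted cells, with a median of 0.476, and from 0 to 2126 CPM in non-photoconverted cells, with a median of 0. Cd3e and Cd6 were detected in 0 of 106 cells, a count that allows at most 2.83%. With Cd8a detected in 1 cell, 3 of these 5 markers could be met in 1 cell at most, so that count of 0 says little. Cd3d and Cd3g were detected together in 3 of 106 cells. The constant chains of the T cell receptor had no gene row under the names sought, so they could not be analysed here. Of the 9 NK or ILC1-like markers, 5 had a gene row, and again 0 of 106 cells held 3 of them. Cst3, listed as myeloid, and Kit, listed for mast cells and basophils, were detected in 75% and 62.5% of photoconverted cells, in 40% and 32.5% of depth-matched cells and in 29.6% and 18.4% of all non-photoconverted cells, and their part in the members' values was not tested.

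Ptprc was the member detected in most cells. The gene (chromosome 1, 138062861 to 138175708, minus strand, mm10) was found in 8 of the 8 photoconverted cells (63.1 to 100%), in 87.5% of depth-matched cells and in 65.3% of all non-photoconverted cells (55.0 to 74.6%). It was detected in 0 of 221 empty wells, which allows up to 1.36%. Reads of Ptprc in photoconverted cells had a lowest value of 23, a median of 191.5 and a highest of 1488, and in non-photoconverted cells 0, 84 and 719. Mean levels of Ptprc were 547 CPM in photoconverted, 611 in depth-matched and 574 in all non-photoconverted cells. The ranges overlapped, and the mean levels lay close together (log2 ratio of photoconverted over all non-photoconverted cells after adding 10 CPM, -0.068). The share was larger in photoconverted cells by 12.5 percentage points against depth-matched cells, and by 0.107 points once each cell was drawn down to 10000 reads.

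The receptor-proximal kinases were detected in fewer cells. Lck (chromosome 4, 129548344 to 129573641, minus strand) was found in 1 of the 8 photoconverted cells (0.316 to 52.7%), in 12.5% of depth-matched cells and in 9.18% of the non-photoconverted cells (4.29 to 16.7%). Lck was the least often detected member in non-photoconverted cells, and it was detected in no empty well even at 1 read. The 1 photoconverted cell with Lck had 92 reads, or 87.7 CPM. The 9 non-photoconverted cells with Lck ran from 455 to 2972 CPM with a median of 994. The photoconverted cell lay below each of those 9 cells. Mean levels were 14.4 CPM in photoconverted, 100 CPM in depth-matched and 127 CPM in all non-photoconverted cells. The highest cell made up 23.9% of the non-photoconverted cells' summed CPM, and without it their mean was 97.6 CPM.

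Fyn (chromosome 10, 39368855 to 39565381, plus strand), the other Src-family kinase, was found in 3 of the 8 photoconverted cells (8.52 to 75.5%), in 45% of depth-matched cells and in 21.4% of the non-photoconverted cells (13.8 to 30.9%). Its direction therefore depended on the cells it was set against, and both differences lay within the interval of the photoconverted share. The 3 photoconverted cells with Fyn had 97.8, 119 and 210 CPM. In the 21 non-photoconverted cells with Fyn, levels ran from 42.0 to 1715 CPM with a median of 313. All 3 photoconverted values were inside that range and below its median. The 3′ end of Fyn lies within Gm16365, an antisense gene on the opposite strand, and the sources used here do not say whether counting used strand.

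Zap70 (chromosome 1, 36761798 to 36782818, plus strand), the kinase that docks on phosphorylated ITAMs, was found in 0 of the 8 photoconverted cells, a count that allows at most 37.5%. It was detected in 32.5% of depth-matched cells and in 22.4% of the non-photoconverted cells (14.6 to 32.0%). At 1 read or more, Zap70 was seen in 4 of 8 photoconverted cells and 48 of 98 non-photoconverted cells, against 1 of 221 empty wells. The photoconverted cells therefore held Zap70 reads, but few. They had at most 10 reads, with 0.5 as the median and 18 in sum. Non-photoconverted cells had 0 to 250 reads, with a median of 0 and a sum of 1983. Mean levels of Zap70 were 4.25 CPM in photoconverted and 143 CPM in non-photoconverted cells.

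**Figure D1:**
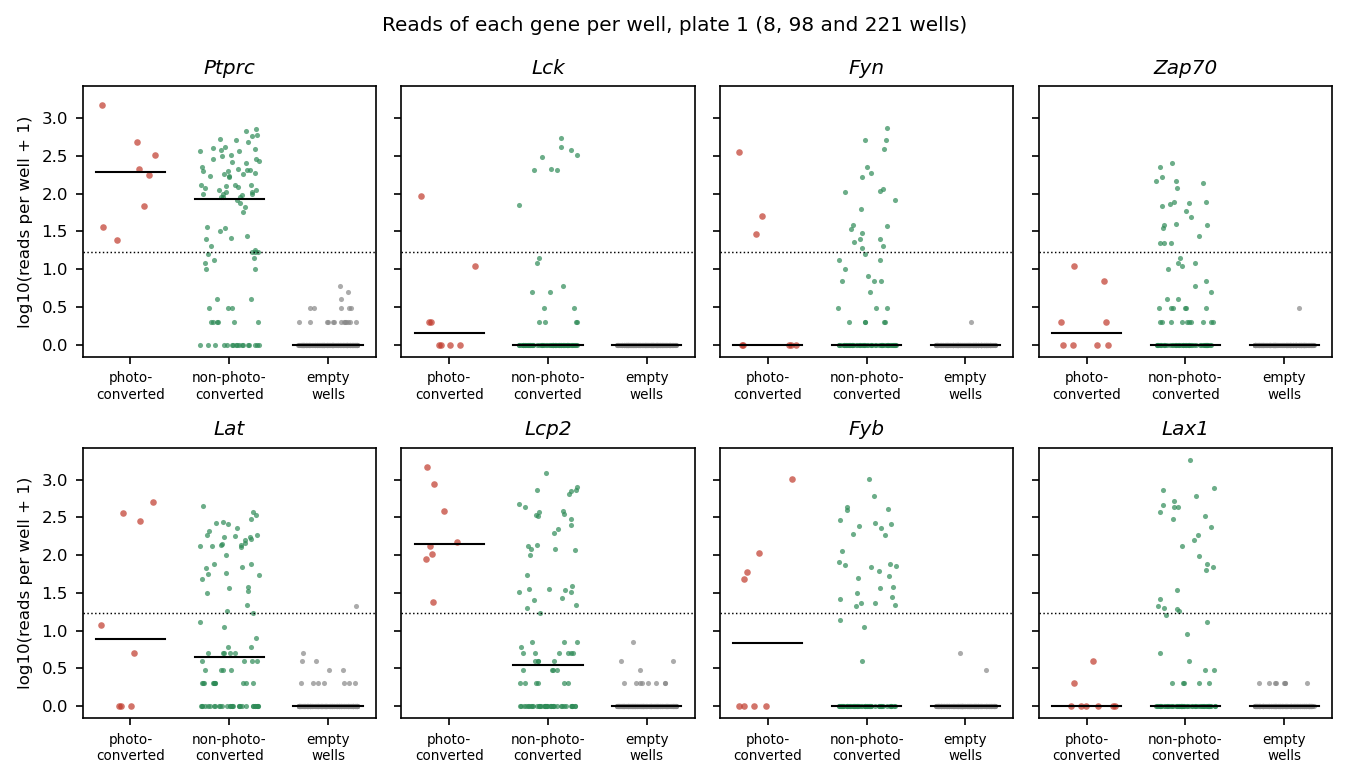
Reads of each member per well of plate 1, as log10(reads + 1), for 8 photoconverted cells, 98 non-photoconverted cells and 221 empty wells. Points are wells, black lines are medians and the dotted line marks 16 reads. Lcp2 and Ptprc lie above the line in 8 of 8 photoconverted cells, and Zap70 and Lax1 in 0 of 8.

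Among the scaffolds, Lat (chromosome 7, 126363824 to 126369570, minus strand) was found in 3 of the 8 photoconverted cells (8.52 to 75.5%), in 57.5% of depth-matched cells and in 39.8% of the non-photoconverted cells (30.0 to 50.2%). It was the second most often detected member in non-photoconverted cells. The photoconverted cells with Lat had 297, 546 and 639 CPM, and the others had 0 to 11 reads. The 39 non-photoconverted cells with Lat ran from 47.2 to 4024 CPM with a median of 430. The photoconverted values thus lay inside that range. Mean levels of Lat were 188 CPM in photoconverted, 202 CPM in depth-matched and 330 CPM in all non-photoconverted cells. Lat was also the one member detected in an empty well, 1 of 221 (0.452%).

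Lcp2 (chromosome 11, 34046920 to 34092295, plus strand), which encodes SLP-76, was found in 8 of the 8 photoconverted cells (63.1 to 100%), in 45% of depth-matched cells, in 35.7% of the non-photoconverted cells (26.3 to 46.0%) and in 0 of 221 empty wells. Photoconverted cells 1 to 8, in well order, held 89, 130, 383, 880, 23, 149, 1450 and 101 reads of Lcp2. Cell 8, the shallowest with 56539 gene reads, had the highest level at 1786 CPM, and cell 5 the lowest at 97.5 CPM. The level in photoconverted cells therefore varied widely, although each cell passed 16 reads.

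Among cells in which Lcp2 was detected, the level was not higher in photoconverted cells by the median. It was 429 CPM in the 8 photoconverted cells, and 698 CPM in the 35 non-photoconverted cells with Lcp2, which ran from 33.6 to 6251 CPM. The colours differed in how many cells held Lcp2, since 0 of 8 photoconverted cells had 0 reads, against 10 of the 40 depth-matched cells (with reuse) and 39 of 98 non-photoconverted cells. Mean levels were 654 CPM over the photoconverted, 340 CPM over the depth-matched and 406 CPM over all non-photoconverted cells. The log2 ratio over all non-photoconverted cells was 0.68, beside a median of -0.20 over the 3174 genes detected in at least 10% of passing cells. With spike-in reads as the denominator it was 1.76, and no such median is given for that scaling. The 2 highest levels, 1381 and 1786 CPM, were in cells 7 and 8. Their red intensities (2202 and 2338) were the lowest of the photoconverted cells, against at most 1527 in non-photoconverted cells. The other photoconverted cells had 97.5 to 672 CPM. The 3′ end of Lcp2 lies within 4930469K13Rik on the opposite strand, so its reads carry the same doubt about strand as those of Fyn.

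Fyb (chromosome 15, 6522853 to 6663313, plus strand), the ADAP gene, was found in 4 of the 8 photoconverted cells (15.7 to 84.3%), in 35% of depth-matched cells and in 30.6% of the non-photoconverted cells (21.7 to 40.7%). Fyb reads were mostly absent or plentiful: at 1 read or more it was found in 50% of photoconverted, 42.5% of depth-matched and 33.7% of all non-photoconverted cells. The 4 photoconverted cells with Fyb had 47, 58, 104 and 1018 reads. Cell 4, the deepest, held 1018 of the 1227 reads. Mean levels were 118 CPM in photoconverted, 179 CPM in depth-matched and 249 CPM in all non-photoconverted cells (log2 ratio over the last, -1.02). One non-photoconverted cell at 6985 CPM made up 28.6% of their summed CPM, and without it their mean was 180 CPM. The direction of the log2 ratio turned when reads were summed before scaling, with 240 and 224 CPM (log2 ratio 0.094). It also turned when spike-in reads were the denominator (1.11). With spike-in reads as the denominator the log2 ratio of Lat was 1.20 (-0.78 by CPM), that of Fyn 0.59 (-0.83) and that of Ptprc 1.16 (-0.068), while Lax1, Lck and Zap70 stayed below 0 at -5.13, -1.43 and -2.49. Photoconverted cells had more gene reads (median 540662 against 187690) at fewer spike-in reads (59284 against 67405). Without a median over all genes on this scaling, these turns cannot be told from a shift of all genes.

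Lax1 (chromosome 1, 133679091 to 133690108, minus strand), the Lat-like adaptor, was found in 0 of the 8 photoconverted cells, a count that allows at most 37.5%. It was detected in 40% of depth-matched cells and in 25.5% of the non-photoconverted cells (17.2 to 35.3%). Its reads in the photoconverted cells were 3 in cell 4, 1 in cell 5 and 0 in the other 6, a sum of 4 among 5109314 gene reads. Non-photoconverted cells had a sum of 7978 among 24185051, of which 1 cell held 1827. Photoconverted cells were thus near 0 throughout, whereas 61 of 98 non-photoconverted cells also had 0 reads.

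The mean level of Lax1 was 0.753 CPM in photoconverted and 556 CPM in non-photoconverted cells (log2 ratio -5.72 after adding 10 CPM). With so few reads in photoconverted cells the added value sets the size of this ratio, which was -8.31 with 1 CPM added and -2.70 with 100. One non-photoconverted cell of 1018 genes, with 1827 Lax1 reads, reached 30811 CPM and made up 56.6% of the non-photoconverted cells' summed CPM. Without it the non-photoconverted mean was 244 CPM, and the log2 ratio was -4.56. That cell was also among the depth-matched cells, whose mean was 1024 CPM with it and 260 CPM without it. The next highest cell had 4840 CPM. The share of cells is less open to such a cell, and by share Lax1 was 40 percentage points lower in photoconverted than in depth-matched cells.

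**Figure D2:**
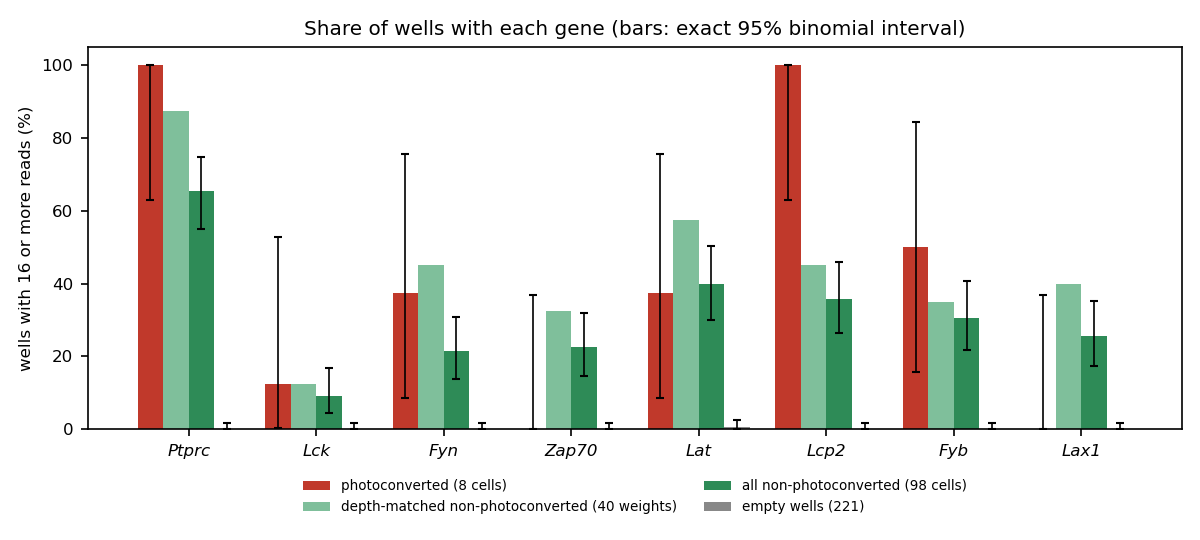
Share of wells in which each member had 16 or more reads, in % of wells, for photoconverted cells, depth-matched cells, all non-photoconverted cells and empty wells of plate 1. Error bars are exact 95% binomial intervals, which depth-matched cells lack because cells were reused. Lcp2 stands at 100% in photoconverted against 45% in depth-matched cells, and Lax1 at 0% against 40%.

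By the order of shares in non-photoconverted cells, Ptprc came first, followed by Lat, Lcp2, Fyb, Lax1, Zap70, Fyn and Lck. The interval of Ptprc lay above that of Lat, while each later pair of neighbours had overlapping intervals. Of the 8 members, 7 were detected in at least 10% of the non-photoconverted cells, and so were 26.6% of all gene rows. These shares were known when the genes were picked.

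Photoconverted and depth-matched cells were next compared across the 3174 genes detected in at least 10% of the 106 cells. Lck missed this limit at 9.43%, and 7 members passed. Of these, Lcp2 lay at least 25 percentage points above depth-matched cells (55 points), as did 12.5% of the genes compared. Lax1 (-40 points) and Zap70 (-32.5 points) lay at least 25 points below, as did 5.83% of the genes compared. Since the members were picked from this contrast, nothing is read from these counts.

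The other members lay within 25 points of the depth-matched share, with Fyb at 15, Ptprc at 12.5, Lck at 0, Fyn at -7.5 and Lat at -20 points. The median over the 7 members was -7.5 points, beside 2.5 points over all genes compared. After drawing each cell down to 10000 reads the difference was 54.8 points for Lcp2, -37.8 for Lax1 and -26.5 for Zap70. It was between -15.5 and 4.94 points for the other 5. Leaving out 1 photoconverted cell at a time gave 48.6 to 62.9 points for Lcp2, -42.9 to -34.3 for Lax1 and -34.3 to -28.6 for Zap70. The photoconverted shares of these members stay at 100% or 0% whichever cell is left out. Their ranges therefore show only changes in the matched cells. Without cell 5, Fyb also passed 25 points, at 28.6. The Zap70 difference depended on the detection limit, at -17.5 points with 1 read and -20 with 4 reads, and was -21.7 points with all sorted wells. Fyn lay lower than Zap70 at those limits, at -30 points with 1 read and -27.5 with 4 reads. The Lcp2 difference was 25 points with 1 read and 40 with 4 reads, and that of Lax1 was -35 and -55.

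**Figure D3:**
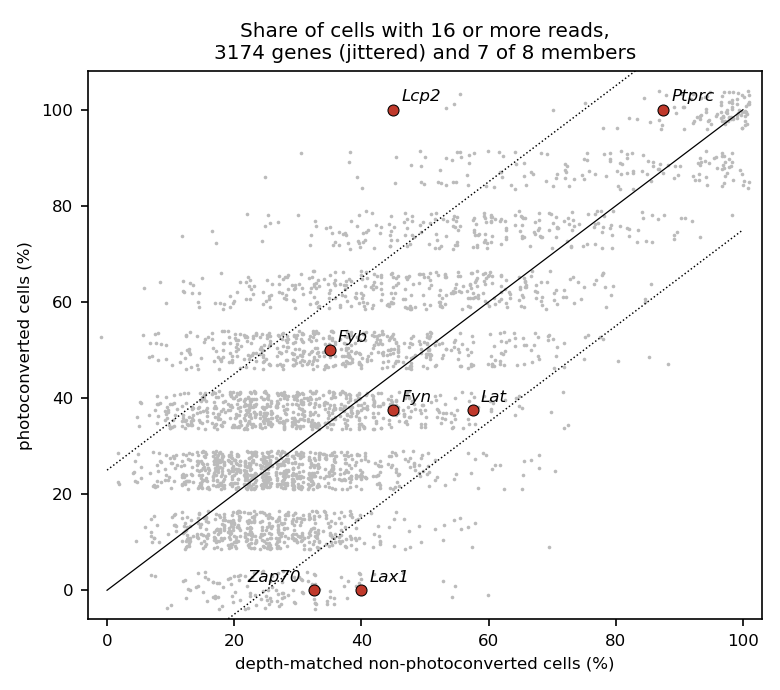
Share of photoconverted cells (vertical axis, %) against share of depth-matched non-photoconverted cells (horizontal axis, %) with 16 or more reads, for 3174 genes in grey, moved slightly at random so that points separate, and 7 members in red. The solid line marks equal shares and dotted lines a difference of 25 percentage points. Lcp2 lies above the upper dotted line, and Lax1 and Zap70 below the lower one.

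Depth within the non-photoconverted cells moved the members' shares to unequal extents. The 98 cells were split into a shallow, a middle and a deep class of 33, 33 and 32 cells, with 502 to 1194, 1220 to 2026 and 2067 to 4480 genes with a read. Ptprc was detected in 33.3%, 72.7% and 90.6% of these classes, and after drawing down to 10000 reads in 47.6%, 69.4% and 85.3%. Its mean levels were 584, 562 and 576 CPM, or 444, 496 and 542 CPM without the highest cell of each class. The share of Ptprc was thus larger in deeper cells also at equal reads.

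Fyn was detected in 6.06%, 15.2% and 43.8% of the classes, and after drawing down to 10000 reads in 9.50%, 14.2% and 40.4%, with mean levels of 59.2, 25.3 and 226 CPM (20.9, 19.0 and 178 CPM without the highest cell of each class). Lck was detected in 0%, 15.2% and 12.5%. Lat was detected in 21.2%, 39.4% and 59.4%, and Lcp2 in 18.2%, 33.3% and 56.3%. Zap70 was detected in 12.1%, 21.2% and 34.4%, and after drawing down in 17.7%, 25.8% and 24.8%. Mean levels of Zap70 were 209, 160 and 57.8 CPM, and 97.2, 91.1 and 41.6 CPM without the highest cell of each class. Its 0 of 8 in photoconverted cells stands beside the 34.4% of the deep class.

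Most cells held a few members and none held all 8. Photoconverted cells had 2 to 5 members, with a median of 3. Depth-matched cells had 0 to 7, with a median of 3.5, and non-photoconverted cells 0 to 7, with a median of 2. In empty wells 220 of 221 had 0.

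Combinations that form one signalling step were then counted. Lat or Lcp2, the scaffold pair, was detected in 8 of 8 photoconverted, 80% of depth-matched and 58.2% of the non-photoconverted cells. Both together were found in 3 of 8 photoconverted, 22.5% of depth-matched and 17.3% of non-photoconverted cells. Lck or Fyn, either of which can phosphorylate ITAMs, was detected in 4 of 8 photoconverted, 55% of depth-matched and 27.6% of non-photoconverted cells. A Src-family kinase together with Zap70, Lat and Lcp2 was detected in 0 of 8 photoconverted, 7.5% of depth-matched and 2 of 98 non-photoconverted cells. In photoconverted cells, all but the count of Lck or Fyn are set by Lcp2 at 8 of 8, Lat at 3 of 8 and Zap70 at 0 of 8. Those shares were known when the members were picked, so these counts add nothing to them. Transcripts missed in a cell at this depth cannot be told from absent ones.

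Lck stood beside Lat in non-photoconverted cells. Of the 9 cells with Lck, 9 also had Lat, whereas 30 of the 89 cells without Lck had it. Median genes with a read were 1946 and 1621 in these cells. The 1 photoconverted cell with Lck had 4 Lat reads. Zap70 and Lat were both detected in 7 non-photoconverted cells, fewer than the 8.76 that the product of their shares gives. Lcp2 and Fyb, whose proteins bind each other, were both detected in 17, against a product of 10.7. Pairs were looked at after their values were seen, and cells of differing depth share genes more often than the product of shares gives.

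**Figure D4:**
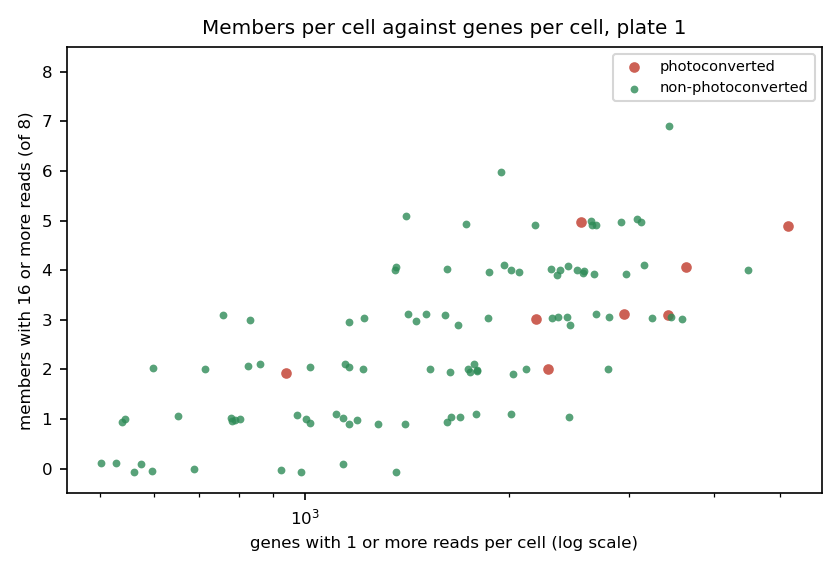
Number of members with 16 or more reads (vertical axis, of 8, moved slightly at random) against genes with a read per cell (horizontal axis, log scale), for 8 photoconverted and 98 non-photoconverted cells. Photoconverted cells hold 2 to 5 members. Cell 4, with 5129 genes, lies beyond the deepest non-photoconverted cell (4480 genes), and the others lie among non-photoconverted cells with as many genes.

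Rank correlation of levels across the 98 non-photoconverted cells gave, for each member detected in at least 25% of them, the nearest among 768 genes, itself left out. Lcp2 was nearest to Fam102a, Jund and Tmem64 (Spearman rho 0.467, 0.404 and 0.398, against a median of 0.121 over the genes compared). Lax1 was nearest to Acadl, Ube2l3 and Hnrnph1 (0.366 to 0.338). Lat was nearest to Tmem176b, Lrp10 and Eif5 (0.434 to 0.416).

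Mapre1 and Ubap2l were among the nearest to Fyb (0.352 and 0.348), and Ptprc was nearest to Eif3c, Larp1 and Wdr26 (0.402 to 0.373). The members' own levels also correlated with genes per cell at 0.224 to 0.319. Between members the highest rho were 0.324 for Lat and Lck and 0.298 for Fyn and Ptprc. These values are weak, the cells share a library and differ in depth, and many are at 0 reads.

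The wider antigen receptor pathway was detected unevenly in ILC2. Of 116 genes listed, 93 had a gene row. Of these, 49 were detected in at least 10% of the non-photoconverted cells, as were 26.6% of all gene rows. With detection at 1 read the count was 66, and at 64 reads it was 33. Listed genes without a row could not be assessed, and only 5 of 15 receptor chains had one. By list, the 10% limit was reached by 0 of 5 receptor chains, 3 of 9 costimulatory receptors and the 1 adaptor of other activating receptors with a row (Hcst). It was also reached by 4 of 9 kinases, 10 of 22 adaptors, 10 of 17 phosphatases and negative regulators, and 21 of 30 downstream enzymes and factors. Median shares of non-photoconverted cells were 2.04% for receptor chains, 4.08% for costimulatory receptors, 9.18% for kinases, 8.67% for adaptors, 10.2% for phosphatases and negative regulators and 12.2% for downstream parts, beside 4.08% over all gene rows.

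Among the lists, the receptor chains with a gene row were the least detected. Cd3g was detected in 2 of 8 photoconverted and 9 of 98 non-photoconverted cells, and Cd3d in 1 of 8 photoconverted and 2 of 98 non-photoconverted cells. Cd247, the zeta chain, was detected in 0 of 8 photoconverted and 2 of 98 non-photoconverted cells, and Cd8a, a coreceptor chain, in 0 of 8 photoconverted and 1 of 98 non-photoconverted cells. Cd3e was detected in no cell. Hcst, the DAP10 adaptor of NKG2D, was detected in 2 of 8 photoconverted and 21.4% of non-photoconverted cells.

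The members were also counted without cells that held a CD3 chain gene. Cd3d, Cd3e or Cd3g was detected in 2 of 8 photoconverted and 9 of 98 non-photoconverted cells. Among the other 6 photoconverted cells, 6 had Lcp2 and Ptprc, 3 each had Lat, Fyb and Fyn, 1 had Lck and 0 had Lax1 or Zap70. Among the other 89 non-photoconverted cells, Ptprc was detected in 65.2%, Lat in 39.3%, Lcp2 in 34.8%, Fyb in 29.2%, Lax1 in 24.7%, Fyn in 22.5%, Zap70 in 21.3% and Lck in 7.87%. In the 9 chain-positive non-photoconverted cells Lck was detected in 2, Zap70 in 3 and Lat in 4. The shares in non-photoconverted cells were thus nearly as large without chain-positive cells. The differences from depth-matched cells then were 56.7 points for Lcp2, -43.3 for Lax1 and -30 for Zap70. Those of Lat and Fyn moved, to 0 points (-20 with all cells) and 10 points (-7.5).

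Kinases and adaptors beside the members were also found. Csk, which restrains Src-family kinases, was detected in 5 of 8 photoconverted, 47.5% of depth-matched and 38.8% of non-photoconverted cells. Syk, the relative of Zap70, and Plcg1, the phospholipase downstream of Lat in T cells, were detected in 0 of 106 cells, and were picked out after their values were seen. Sh2d2a, an adaptor that binds Lck, was detected in 5 of 8 photoconverted, 57.5% of depth-matched and 36.7% of non-photoconverted cells, and Skap1, a partner of ADAP, in 5 of 8 photoconverted, 50% of depth-matched and 31.6% of non-photoconverted cells.

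Regulators and downstream parts were likewise present. Dgka, which consumes diacylglycerol, was detected in 5 of 8 photoconverted, 70% of depth-matched and 36.7% of the non-photoconverted cells. Sla, a Src-like adaptor, was detected in 3 of 8 photoconverted, 42.5% of depth-matched and 29.6% of non-photoconverted cells, and Inpp5d, the lipid phosphatase SHIP1, in 4 of 8 photoconverted, 40% of depth-matched and 20.4% of non-photoconverted cells. Itpr2, a calcium channel of the endoplasmic reticulum, was detected in 5 of 8 photoconverted, 67.5% of depth-matched and 33.7% of non-photoconverted cells.

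Prkcq, the kinase PKC theta, was detected in 3 of 8 photoconverted, 60% of depth-matched and 32.7% of the non-photoconverted cells. Ppp3ca, a catalytic subunit of calcineurin, and Nfatc3, a factor it activates, were each detected in 3 of 8 photoconverted cells, in 37.5% and 45% of depth-matched cells and in 28.6% of the non-photoconverted cells. Among costimulatory receptors, Icos was detected in 4 of 8 photoconverted, 70% of depth-matched and 42.9% of non-photoconverted cells, Cd27 in 6 of 8 photoconverted, 42.5% of depth-matched and 38.8% of non-photoconverted cells, Pdcd1 in 3 of 8 photoconverted, 37.5% of depth-matched and 25.5% of non-photoconverted cells, and Cd96 in 2 of 8 photoconverted, 10% of depth-matched and 7.14% of non-photoconverted cells.

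Beside the members, 45 listed genes were among the 3174 compared, with a median difference of 0 points. Cd27 (32.5 points) and Ubash3b, a phosphatase that damps T cell receptor signalling (30 points), lay at least 25 points above depth-matched cells. Rasgrp1, an activator of Ras (-27.5 points), lay at least 25 points below. These 3 of 45 are set beside the 12.5% above and 5.83% below over all genes compared, and Ubash3b and Rasgrp1 were named after their values were seen.

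**Figure D5:**
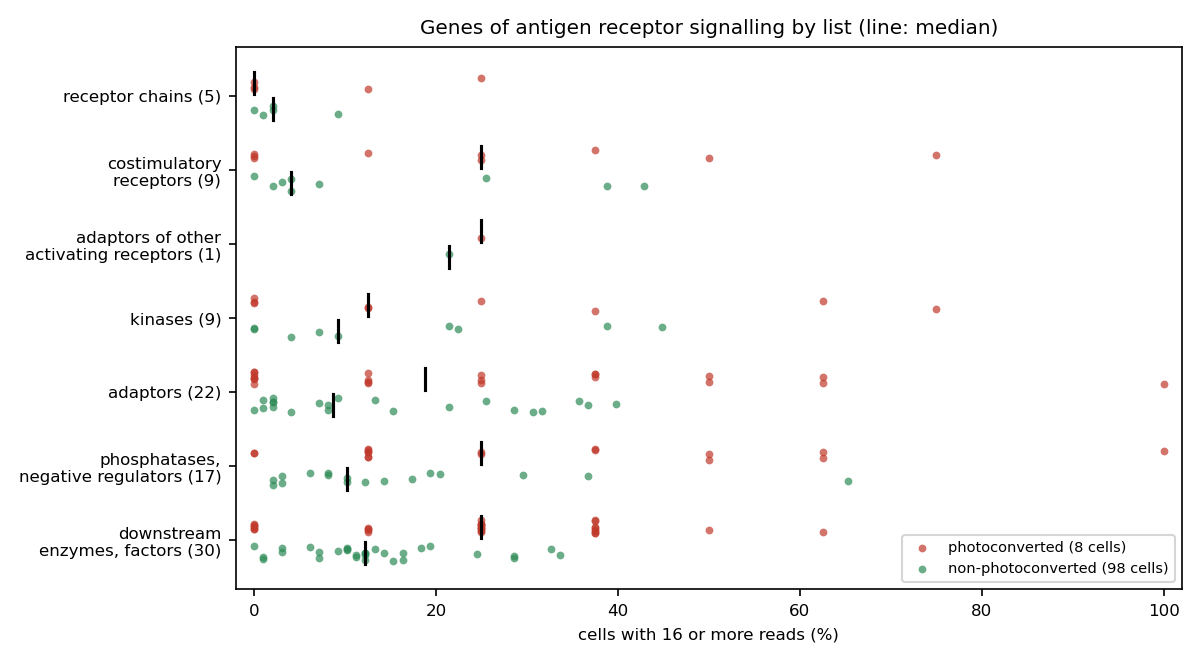
Share of cells with 16 or more reads (horizontal axis, %) for the 93 listed genes with a gene row, by list, in 8 photoconverted cells (red, above) and 98 non-photoconverted cells (green, below). Points are genes, black lines are medians and the number of genes stands in brackets. The 5 receptor chains lie at 0 to 9.18% of the non-photoconverted cells, below the upper end of every other list.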

How the data were processed

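Per the labels, single pancreatic ILC2 went into plates with reagents for SORT-seq, which builds on CEL-seq2. The authors deposited raw counts of reads for every gene row in every well. Their sort record gives the phenotype of the well and, per the file headers, a red fluorescence intensity, taken to be in arbitrary units. STAR, STARsolo, edgeR and mm10 are named in the submitters' processing notes, with no version. The counts are reads and not molecular identifiers, and no count test was run, since plate 1 gives 1 sample per colour.

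Rows were named on plate 1 only. Spike-in rows were left out of totals. Cells needed 500 genes and under 25% mitochondrial reads. Shares used 16 reads, depth-matched cells the 5 nearest cells (29 distinct, worth 22.9 if weighted equally), drawn-down shares the exact expectation at 1 read in 10000, and log2 ratios 10 added CPM. No doublet caller was run on sorted single cells. Members and lists were chosen with earlier results of these data known. Named pathway genes were the 4 most often detected per list and every receptor chain with a gene row, with exceptions stated. One result that falls under these rules is not reported here. The share difference was also run on non-photoconverted cells standing in for photoconverted ones, with detections planted in genes drawn at random. The outcome of that run is not given here. Coordinates are from GENCODE M21. Analyses used Python 3.11.15, pandas 2.3.3 and SciPy 1.17.1. Alternatives covered detection limit, cell filter, matching, scaling, added CPM and leaving out cells.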

Additional observations from a re-analysis of the deposited data

How the results depend on the processing

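Lcp2 was the 1 member at least 25 percentage points above, and Lax1 and Zap70 the 2 at least 25 points below, depth-matched cells. The number above was 2 when depth was not matched and every passing non-photoconverted cell was used, and 1 to 2 when 1 photoconverted cell was left out (2 without cell 5, where Fyb joined). The number below was 1 without depth matching, 1 with every sorted well kept, and 2 to 3 when 1 photoconverted cell was left out. It was 3 with cells matched on total reads, where Lat lay at -30 points. With a limit of 40 points, 2.46% of genes lay above and 0.914% below. The number below stayed at 2 with detection at 1 and 4 reads, but the members changed: Zap70 left (-17.5 and -20 points) and Fyn entered (-30 and -27.5). The level of Fyb changed direction with spike-in reads as the denominator (log2 ratio 1.11) and with reads summed before scaling (0.094), and cell 4 held most of its reads. With spike-in reads the levels of Lat (1.20), Fyn (0.59) and Ptprc (1.16) also turned positive, which cannot be told from a shift of all genes on that scaling. The level of Lax1 ran from -8.31 with 1 CPM added to -2.70 with 100. Other counts were within 1.5 times of the reported ones under the alternatives run. Leaving out the 2 photoconverted cells near the sort boundary, and the highest non-photoconverted cell for levels, overall or by depth class, were chosen after seeing the data. Without those 2 photoconverted cells, 7 and 8, the share difference of Lcp2 was 46.7 points. Its photoconverted share stays at 100% there, so only the matched cells changed. No paired analysis was possible because there is 1 sample per colour and the labels give no animal of origin. With 8 photoconverted cells, 0 detections allow a share of up to 37.5%, so the depth and the number of cells limit each statement on Lax1 and Zap70.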
